A study of Homo sapiens with 8 samples.

Results

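The cadherins described here are 10 genes of the classical family and close relatives, CDH2, CDH4, CDH6, CDH7, CDH8, CDH10, CDH11, CDH12, CDH13 and CDH18. They were chosen by name, with earlier results of these data known. An array row annotated to exactly 1 of these symbols existed for 8 of them, out of 18377 genes with such a row, and each of the 8 had a single row. CDH4 and CDH13 were not analysed here. Of the 8 analysed genes, CDH2 is a type I cadherin and the other 7 are type II cadherins.

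Classical cadherins are calcium-dependent adhesion receptors of the plasma membrane. Their extracellular repeats bind cadherins of neighbouring cells, and their cytoplasmic tail binds p120 catenin and beta-catenin, which in turn is joined to actin through alpha-catenin. CDH2 (N-cadherin) is the main classical cadherin of neurons and neural crest derivatives, while type II cadherins are expressed in restricted sets of neurons and mark subgroups of them. Migrating neural crest cells are known to change the cadherins that they express.

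RNA of 4 groups, each with 2 biological replicates, was hybridized to 8 Affymetrix Human Gene 1.0 ST arrays. The cells were stable lines of SHSY5Y, a human neuroblastoma cell line of neural crest origin. The lines carry the code PLKO or V71 in the sample titles, and both were made with a virus and kept in puromycin. One line carries an shRNA and the other an empty control vector. Each vector is represented by 1 stable line, whether a line is 1 clone is not given in the sources used here, and line and shRNA therefore cannot be told apart. The treatment label names shRNA for PLKO and control for V71, whereas pLKO.1-Puro is the control vector in the methods, so that label and methods contradict each other. The target of the shRNA was not analysed here, so the knockdown was not checked. The lines are called PLKO and V71 after their titles, and every difference between them is V71 minus PLKO. Cells of both lines grew on laminin, either in serum-containing growth medium (NDF) or under differentiation (DF). Retinoic acid at 10 µM was given for 5 days, and BDNF at 2 nM without serum followed for 3 days. Values are the deposited log2 values of the robust multi-average method (RMA). Precision is limited by the number of arrays, 2 in each group.

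All 11 analysed markers of the noradrenergic neuroblast (N-type), the cell type of SHSY5Y, had means above the lower quartile of the arrays in every group. Of the 7 analysed Schwann cell markers, 0 or 1 lay below it in a group, so this mark does not tell cell types apart. TH, an N-type marker, had group means from 4.28 to 4.43, below the lowest array median of 4.60. In NDF 2 of the 11, CHGA and CHGB, were higher in V71 and 0 lower, against 0.615% and 1.54% of all genes. In DF, CHGB was higher and DBH lower in V71, against 1.81% and 1.26%. Upon differentiation CHGB rose and DDC fell in PLKO, against 2.88% and 4.16%. In V71, CHGB rose and GATA3, DBH and DDC fell, against 3.98% and 3.55%. Without moderation 1, 0, 2 and 4 of the 11 were called in these contrasts, in this order. Of 6 analysed retinoic acid response genes, 4 rose upon differentiation in each line. Over all genes 2.88% rose in PLKO and 3.98% in V71. In DF, CRABP2 of this list was higher in V71, by 1.45 on the log2 scale, DHRS3 was lower, at -1.17, and 4 were not called. Of 10 proliferation genes, 10 fell in PLKO and 9 in V71 upon differentiation, where 4.16% and 3.55% of all genes fell. In DF 5 of the proliferation genes were higher in V71, against 1.81% of all genes. None of these 5 was called without moderation of the variance. None of the 7 analysed Schwann cell markers was called by limma in any contrast, and the most of them with an unadjusted p under 0.05 in a contrast was 1. Arrays of 1 group had Spearman correlations over all rows of 0.9947 or more and arrays of different groups of 0.9931 or less.

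Means of the 4 groups were estimated in limma from all rows. Calls required a fold change of 1.5 or more together with a Benjamini-Hochberg adjusted p, taken over all rows, below 0.05. Of the 8 cadherins 3, CDH11, CDH18 and CDH2, were called in at least 1 contrast, and the other 5 in none. The share of all genes called in at least 1 contrast was not computed, so this count stands without a comparison. Counts and shares by contrast are given below. Since different rows use different probes, levels were compared only within a gene. Levels in bulk RNA cannot tell fewer expressing cells from less RNA per cell. CDH2 and CDH11 lay above the lower quartile on all 8 arrays, whereas CDH18 lay below it on 6 of 8. CDH6, CDH7, CDH10 and CDH12 were below the lower quartile on every array, and CDH8 on 1 of 8.

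**Figure D1:**
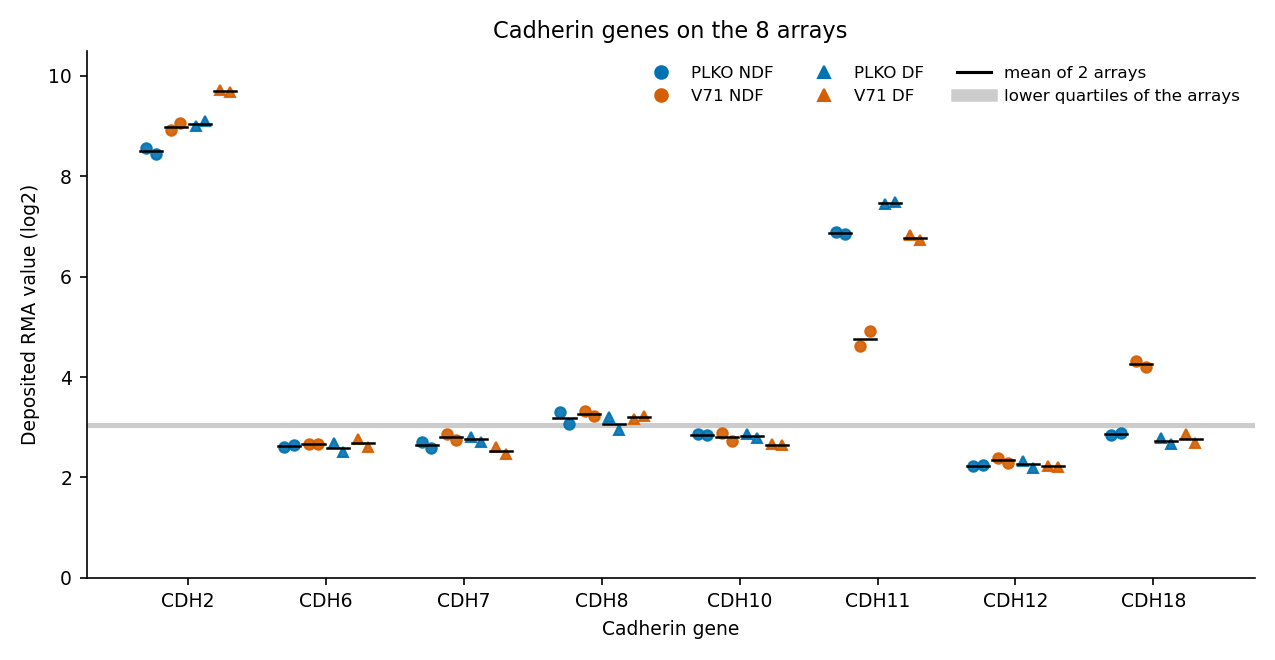
Deposited RMA value (log2) of each of the 8 analysed cadherins on each of the 8 arrays. NDF arrays are circles and DF arrays triangles, PLKO in blue and V71 in orange, black bars are means of 2 arrays, and the grey band spans the lower quartiles of the arrays. CDH2 and CDH11 sit above the band in all groups, CDH18 rises above it in V71 NDF, and CDH6, CDH7, CDH10 and CDH12 stay below it.

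CDH11 (cadherin 11, OB-cadherin), a type II cadherin of mesenchymal and migrating neural crest cells, was the cadherin with the widest range over the arrays, from 4.61 to 7.48 on the log2 scale. In NDF its values were 6.89 and 6.84 in PLKO and 4.61 and 4.91 in V71. In DF they were 7.45 and 7.48 in PLKO and 6.82 and 6.74 in V71. Both V71 arrays thus lay below both PLKO arrays in each condition, and no groups overlapped. The V71 NDF pair also had the largest SD of the 4 groups, 0.21.

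In NDF the CDH11 level of V71 was 4.30-fold lower, a difference of -2.10 on the log2 scale (standard error 0.11, adjusted p = 1.2e-05). In DF it was 1.61-fold lower, at -0.69 (standard error 0.11, adjusted p = 0.00579). Upon differentiation CDH11 rose in both lines. The rise was 4.04-fold in V71, a log2 change of 2.02 (standard error 0.11, adjusted p = 3.35e-06), and 1.51-fold in PLKO, a log2 change of 0.60 (standard error 0.11, adjusted p = 0.00518). The change in V71 exceeded that in PLKO by 1.42 on the log2 scale (standard error 0.15, adjusted p = 0.00206 for the interaction). The difference between the lines therefore narrowed in DF but did not close. Ordered by level, the groups were V71 NDF, V71 DF, PLKO NDF and PLKO DF. Of these neighbours, V71 DF and PLKO NDF differed by 0.09 on the log2 scale with a 95% interval of -0.15 to 0.33, so that differentiated V71 cells could not be told from undifferentiated PLKO cells in CDH11 level.

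The calls of CDH11 in NDF and upon differentiation of V71 held under every alternative run. Without moderation of the variance the calls between the lines in DF, upon differentiation of PLKO and in the interaction end, with an adjusted p of 0.115, 0.0744 and 0.167. The call upon differentiation of PLKO also ends without PLKO NDF replicate 3, at 0.57 (adjusted p = 0.053), and without PLKO DF replicate 2, at 0.58, below the fold threshold.

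Some markers of S-type neuroblastoma cells, which are substrate-adherent and mesenchymal, were lower in V71, as CDH11 was. Of 29 analysed markers, a list that does not hold CDH11, 10 were lower in V71 in NDF, none was higher and 19 were not called, where 1.54% of all genes were lower. In DF 4 were lower, none was higher and 25 were not called, where 1.26% of all genes were lower, and the median difference of the list was 0.01, beside 0.01 over all genes. Without moderation 4 of the 29 were called in NDF and 1 in DF. Upon differentiation 7 fell and none rose in PLKO, where 4.16% of all genes fell and 2.88% rose. In V71 2 rose and 1 fell, where 3.98% of all genes rose and 3.55% fell. The mean log2 level of the 29 markers ranged from 5.32 to 5.34 on the PLKO NDF arrays, from 4.77 to 4.83 in V71 NDF, from 4.97 to 4.99 in PLKO DF and from 4.68 to 4.81 in V71 DF. Means below the lower quartile were found for 5 markers in V71 DF (VIM, LUM, DCN, NT5E and ANXA1) and for 3 in each of the other groups, ANXA1 among them throughout. The mean of the list was lower on the PLKO DF than on the PLKO NDF arrays, with 22 of the 29 markers not called in that contrast. CDH11 rose in that contrast. The part of such cells in the CDH11 values was not tested.

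The genes whose values were most like those of CDH11 over the 8 arrays, among 2126 genes with an SD of at least 0.3, were the nuclear factor AFF3 (Pearson r = 0.998), the transcription factor NFIB (r = 0.995) and the scaffold protein TANC2 (r = 0.987). AFF3 stood at -1.56 between the lines in NDF and rose by 1.56 in V71, on the log2 scale. These correlations are descriptions over 4 groups of 2 arrays. The protein-coding genes next to CDH11 on chromosome 16 that were measured are CDH8 and CDH5, a type II cadherin of neurons and the cadherin of endothelial cells. CDH5 ranged from 2.97 to 3.44 and CDH8 from 2.95 to 3.32 over the 8 arrays, and neither was called in any contrast.

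CDH18 (cadherin 18), a type II cadherin of the central nervous system, ran opposite to CDH11 between the lines in NDF and upon differentiation of V71. Both contrasts use the V71 NDF arrays. Between the lines in DF and upon differentiation of PLKO, CDH18 was not called. In NDF its values were 4.32 and 4.19 in V71 and 2.84 and 2.89 in PLKO on the log2 scale. In DF they were 2.86 and 2.68 in V71 and 2.78 and 2.66 in PLKO. Both V71 NDF arrays stood apart from the other 6, which lay below the lower quartile of their arrays. In 3 of the 4 groups CDH18 was thus at a level where the array may not measure it, so the sizes below are differences of deposited values and no fold is given.

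The difference of CDH18 between the lines in NDF was 1.39 on the log2 scale (standard error 0.10, adjusted p = 5.66e-05), and in DF it was 0.05 with a 95% interval of -0.17 to 0.27 (adjusted p = 0.876). Upon differentiation CDH18 fell by 1.49 on the log2 scale in V71 (standard error 0.10, adjusted p = 1.29e-05). In PLKO the change was -0.14, with a 95% interval of -0.36 to 0.08 (adjusted p = 0.463). The changes in the 2 lines differed by -1.34 (standard error 0.14, adjusted p = 0.0018 for the interaction). This last call ends without moderation, with an adjusted p = 0.131, while the calls in NDF and upon differentiation of V71 held under every alternative that kept the gene; the filter on dim rows removed it.

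**Figure D2:**
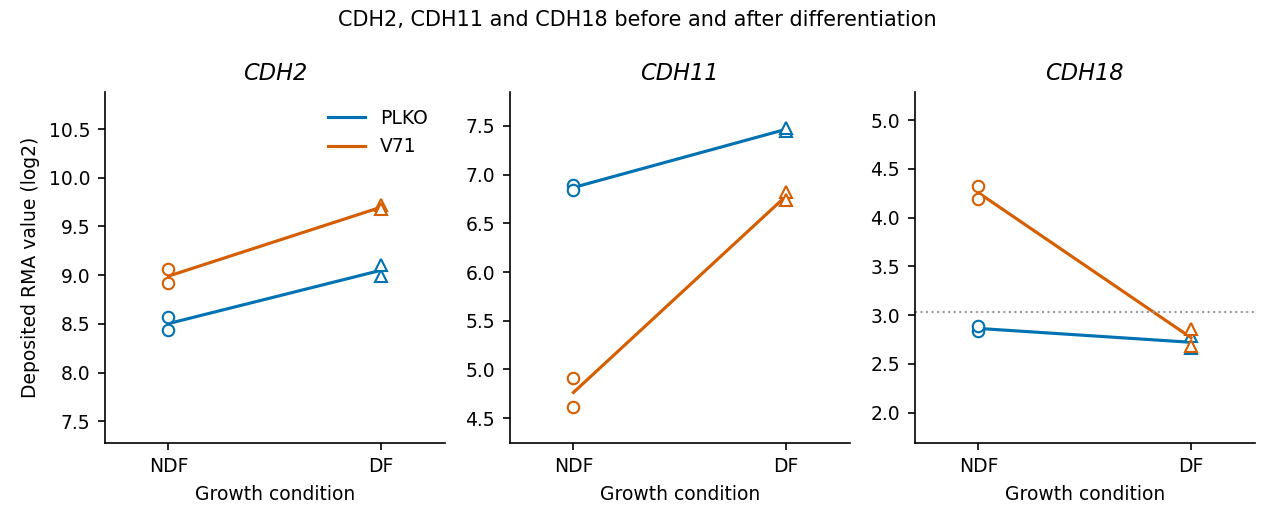
Deposited RMA value (log2) of CDH2, CDH11 and CDH18 in NDF and DF, with 1 symbol per array and lines through the means of 2 arrays (blue PLKO, orange V71); each panel spans the same number of log2 units and the dotted line is the mean lower quartile of the arrays. CDH2 is higher in DF than in NDF in each line, CDH11 rises more steeply in V71 (2.02 against 0.60), and CDH18 falls in V71 to the level of PLKO.

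The genes most like CDH18 over the 8 arrays were CNTNAP4, a neurexin-like partner of contactins (Pearson r = 0.988), ENC1, an actin-binding protein (r = 0.978), and RERG, a growth inhibitor related to RAS (r = 0.976). CNTNAP4 stood at 2.16 between the lines in NDF and at 0.19 in DF, on the log2 scale. CDH18 is 1 of 4 analysed cadherins of the set on chromosome 5, beside CDH6, CDH10 and CDH12. Its measured protein-coding neighbours are CDH12 and BASP1, a growth cone protein. CDH12 differed by 0.11 and BASP1 by -0.27 between the lines in NDF (adjusted p = 0.704 and 0.317), and neither was called in any of the 4 contrasts between groups.

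CDH2 (cadherin 2, N-cadherin) was measured at a high level on all arrays, with its highest values in V71 DF. Its values in NDF were 8.57 and 8.44 in PLKO and 8.92 and 9.06 in V71 on the log2 scale. In DF they were 8.99 and 9.11 in PLKO and 9.72 and 9.68 in V71. Within each condition both V71 arrays lay above both PLKO arrays, and within each line both DF arrays lay above both NDF arrays. The order of the groups was PLKO NDF, V71 NDF, PLKO DF and V71 DF. V71 NDF and PLKO DF overlapped, with a difference of 0.06 on the log2 scale and a 95% interval of -0.15 to 0.27.

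Between the lines CDH2 was called in DF, where it was 1.57-fold higher in V71, by 0.65 on the log2 scale (standard error 0.09, adjusted p = 0.00375). In NDF the difference of 0.49 passed the p threshold (adjusted p = 0.0242) but its fold was under the threshold of 1.5. Upon differentiation CDH2 rose 1.63-fold in V71, at 0.71 (standard error 0.09, adjusted p = 0.000817). In PLKO it stood at 0.55 (adjusted p = 0.00382), a fold of 1.46 and therefore not called. The interaction was 0.16 with a 95% interval of -0.13 to 0.45 (adjusted p = 0.808), so a difference between the lines in the change of CDH2 was not shown, and the call in V71 alone is no such difference. The call between the lines in DF ends without moderation (adjusted p = 0.0725). In PLKO the change becomes a call without PLKO NDF replicate 2, at 0.61 (adjusted p = 0.0177), or without PLKO DF replicate 1, at 0.60 (adjusted p = 0.0118). The genes most like CDH2 over the 8 arrays were TMX4, a membrane protein of the endoplasmic reticulum (Pearson r = 0.995), the developmental regulator MAB21L2 (r = 0.991) and the sestrin SESN3 (r = 0.987). MAB21L2 had larger differences than CDH2, 2.16 between the lines in NDF and 2.41 upon differentiation of PLKO.

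The promoters of CDH18 and CDH2 are shown because the genes ran in opposite directions upon differentiation of V71. RefSeq's table (GRCh38.p14) held entries for 6 of the 8 analysed cadherins, 13 in all, but none for CDH6 or CDH11. CDH11, which rose the most of the cadherins in V71, by 2.02 on the log2 scale, is therefore not covered. From each entry the 250 bases before the start were read. Printed are the first of 3 entries for CDH18, chr5:20575714-20575963, and the first of 2 for CDH2, chr18:28177131-28177380, both on the minus strand and 5′ to 3′. Capitals mark the GC box, searched as GGGCGG on both strands.
CDH18: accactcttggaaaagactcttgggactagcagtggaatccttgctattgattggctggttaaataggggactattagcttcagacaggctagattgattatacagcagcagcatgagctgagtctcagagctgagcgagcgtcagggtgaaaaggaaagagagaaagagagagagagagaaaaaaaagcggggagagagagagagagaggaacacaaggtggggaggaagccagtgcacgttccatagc
CDH2: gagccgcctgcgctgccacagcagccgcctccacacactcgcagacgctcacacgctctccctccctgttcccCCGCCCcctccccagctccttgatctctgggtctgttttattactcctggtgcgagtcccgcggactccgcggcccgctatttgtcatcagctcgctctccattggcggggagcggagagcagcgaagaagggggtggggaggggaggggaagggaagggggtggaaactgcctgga
The CDH2 stretch holds 17 CG dinucleotides and 1 GC box, which 42.6% of all 35116 promoter stretches of this length hold. The CDH18 stretch holds 4 CG dinucleotides, against a median of 11 over all stretches, and no GC box. The E-box bound by Snail and ZEB repressors, searched as CAGGTG on both strands, was in none of the 13 cadherin stretches and in 17.5% of all. CDH11 is not among these 13. The nuclear receptor half-site AGGTCA was in neither printed stretch and in 12.1% of all, and the TATA box TATAAA likewise in neither and in 10.7%. The printed stretches do not stand for all entries of a gene: the second CDH18 entry holds 15 CG dinucleotides, and the second CDH2 entry holds 4, no GC box and 1 TATA box. These matches describe letters in the window and were not measured as binding.

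CDH6, CDH7, CDH8, CDH10 and CDH12, type II cadherins of kidney and of subgroups of neurons, were near or below the lower quartile and varied little. CDH6 ranged from 2.50 to 2.78 over the 8 arrays, CDH7 from 2.46 to 2.87, CDH8 from 2.95 to 3.32, CDH10 from 2.65 to 2.89 and CDH12 from 2.20 to 2.40, on the log2 scale. None of the 5 was called in any contrast, by limma with or without moderation. The differences lay between -0.39 and 0.16, and the 95% intervals between -0.69 and 0.40. Only CDH7 had an unadjusted p under 0.05, in 3 contrasts: between the lines in DF, at -0.23 (adjusted p = 0.254), upon differentiation of V71, at -0.28 (adjusted p = 0.0953), and in the interaction, at -0.39 (adjusted p = 0.359). At these levels a difference in RNA may not be detectable on the array.

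Counted by contrast, 2 of the 8 cadherins were called between the lines in NDF, CDH18 higher and CDH11 lower in V71, where 2.15% of all genes were called (0.615% higher and 1.54% lower). In DF 2 of 8 were called, CDH2 higher and CDH11 lower, against 3.06% of all genes (1.81% higher and 1.26% lower). Upon differentiation of PLKO 1 of 8 was called, CDH11, against 7.04% of all genes (2.88% higher and 4.16% lower). Upon differentiation of V71 3 of 8 were called, CDH2 and CDH11 higher and CDH18 lower, against 7.53% (3.98% higher and 3.55% lower). In the interaction 2 of 8 were called, CDH11 above and CDH18 below 0, against 1.39% (1.09% above and 0.305% below). The median difference of the 8 cadherins was 0.10 in NDF and 0.01 in DF between the lines, 0.00 in PLKO and -0.09 in V71 upon differentiation, beside 0.01, 0.01, 0.01 and 0.00 over all genes, but 5 of the 8 lay near or below the lower quartile. The NDF contrast shares its arrays with both differentiation contrasts. Because the cadherins were chosen with earlier results of these data known, the counts are descriptions and no test of the set.

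**Figure D3:**
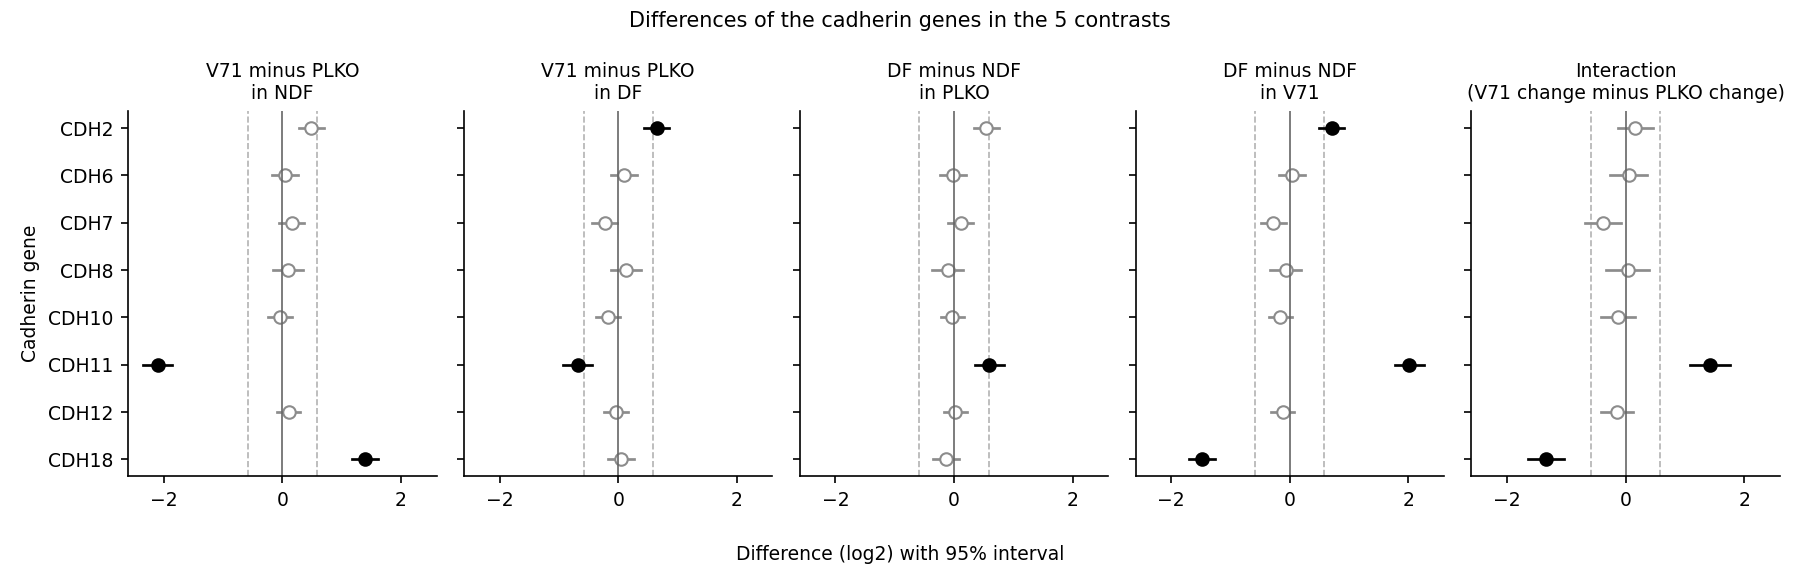
Difference (log2) of each of the 8 analysed cadherins in the 5 contrasts, with the 95% interval from limma. Filled symbols are called, open symbols are not, and dashed lines mark a fold of 1.5; CDH11 and CDH18 stand on opposite sides of 0 in the NDF, V71 and interaction panels, while CDH6, CDH7, CDH8, CDH10 and CDH12 lie near 0 in all panels.

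The remaining cadherins were not called. Of 13 analysed genes, among them CDH1 (E-cadherin) and CDH3 (P-cadherin) of epithelia and CDH19 of Schwann cell precursors, limma called 0 in each of the 5 contrasts, with or without moderation. One of them had an unadjusted p under 0.05, upon differentiation of PLKO. All their differences in the 4 contrasts between groups lay between -0.19 and 0.27 on the log2 scale. In every group 4 of the 13, CDH1, CDH9, CDH17 and CDH19, had means below the lower quartile, where the array may not measure them. CDH3 had group means from 3.44 to 3.53. Of the 7 desmosomal cadherins, the adhesion proteins of desmosomes, limma likewise called 0 in each contrast, with or without moderation, and none had an unadjusted p under 0.05. Their means lay below the lower quartile for all 7 in 3 groups and for 6 in V71 DF, where the array may not measure them.

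Among 9 large cadherins, receptors with many cadherin repeats that act in planar polarity and growth control, 3 FAT genes were called in some contrast. In NDF 2 were lower in V71, against 1.54% of all genes, and in DF 1 was higher, against 1.81%. Upon differentiation 1 rose and 2 fell in PLKO, against 2.88% and 4.16%. In V71 1 rose and 1 fell, against 3.98% and 3.55%. The interaction was above 0 for 1, against 1.09%. FAT4 rose upon differentiation in both lines. Its values were 4.93 and 5.01 in PLKO NDF, 4.62 and 4.82 in V71 NDF, 5.48 and 5.64 in PLKO DF and 6.43 and 6.45 in V71 DF. The rise was 1.72 in V71 (adjusted p = 5.32e-06) and 0.59 in PLKO (adjusted p = 0.00338), and the interaction of 1.13 (adjusted p = 0.00442) was called. The call in PLKO ends without PLKO NDF replicate 3, at 0.55, or PLKO DF replicate 2, at 0.51. In DF, FAT4 was also higher in V71, by 0.88 (adjusted p = 0.000938). Without moderation the calls of FAT4 in PLKO, in DF and in the interaction end, with an adjusted p of 0.0502, 0.0596 and 0.169. FAT1 fell upon differentiation in both lines, by 1.98 in PLKO (adjusted p = 1.44e-06) and by 1.44 in V71 (adjusted p = 1.01e-05), and FAT3 fell by 1.04 in PLKO (adjusted p = 0.000307), to a mean below the lower quartile. In NDF, FAT1 at -0.61 and FAT3 at -0.64 were lower in V71. The call of FAT1 there ends when either PLKO NDF array or V71 NDF replicate 2 is left out (adjusted p = 0.0565 to 0.0782), and that of FAT3 without PLKO NDF replicate 2, V71 NDF replicate 2 or V71 NDF replicate 3 (adjusted p = 0.088 to 0.162). Both also end without moderation (adjusted p = 0.0943 and 0.232), and that of FAT3 with a replicate block (adjusted p = 0.0636).

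Catenins carried few calls. Beta-catenin (CTNNB1) was steady, with group means from 9.47 to 9.61 and no difference beyond -0.14 on the log2 scale in the contrasts between groups. Of 11 analysed catenins and relatives, none was called between the lines in NDF, where 2 had an unadjusted p under 0.05 and 0 were called without moderation. In DF plakoglobin (JUP), which can take the place of beta-catenin at junctions, was higher in V71, at 0.59 (adjusted p = 0.014). This call ends without PLKO DF replicate 1, PLKO DF replicate 2 or V71 DF replicate 1. Alpha-catulin (CTNNAL1) fell upon differentiation, by 0.92 in PLKO (adjusted p = 0.000954) and by 0.83 in V71 (adjusted p = 0.00177). Without moderation all calls of catenins end, with an adjusted p of 0.0545 and 0.0656 for CTNNAL1. Plakophilin 2 (PKP2) was called in the interaction, at 0.67 (adjusted p = 0.0396), but not without any 1 of the 8 arrays (adjusted p = 0.0585 to 0.22) and not with a replicate block (adjusted p = 0.087). Of the alpha-catenins, CTNNA1 stood at 0.44 in V71 upon differentiation (adjusted p = 0.0208), under the fold threshold.

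Of 16 analysed junction partners and processing enzymes, PTPRM, a receptor phosphatase found with cadherins at cell contacts, rose the most upon differentiation. Its values were 4.36 on both PLKO NDF arrays, 4.03 and 4.09 in V71 NDF, 5.91 and 6.07 in PLKO DF and 5.69 and 5.71 in V71 DF. The rise was 1.63 in PLKO (adjusted p = 2.99e-06) and 1.64 in V71 (adjusted p = 3.42e-06). NECTIN3, an immunoglobulin adhesion molecule of the same junctions, fell by 0.74 in PLKO (adjusted p = 0.00382) and in DF was higher in V71, by 0.97 (adjusted p = 0.00221). IQGAP1, a scaffold protein that binds actin, was higher there too, by 0.61 (adjusted p = 0.0024), which without PLKO DF replicate 1 drops just under the fold threshold, at 0.58. Vinculin (VCL), which links catenins to actin, was lower in V71 in NDF, at -0.64 (adjusted p = 0.033). Without moderation the calls of NECTIN3 and VCL end (adjusted p = 0.086 to 0.273), whereas those of PTPRM and IQGAP1 held. The call of VCL also ends without any of the 4 NDF arrays or either V71 DF array (adjusted p = 0.0554 to 0.23). In the interaction limma called 0 of the 16, with 5 at an unadjusted p under 0.05 and 0 without moderation.

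Of the 6 repressors of epithelial cadherin transcription, SNAI2 and ZEB2 differed most. SNAI2, a Snail factor of neural crest migration, was at 6.43 and 6.61 in PLKO NDF, 4.91 and 4.92 in V71 NDF, 5.04 and 5.08 in PLKO DF and 4.49 and 4.64 in V71 DF. It was lower in V71 in NDF, at -1.61 (adjusted p = 2.1e-05), and fell by 1.46 in PLKO (adjusted p = 8.42e-06). ZEB2 fell by 1.28 in PLKO (adjusted p = 1.23e-05) and was higher in V71 in DF, by 0.98 (adjusted p = 0.000244). The interaction was called for SNAI2, at 1.11 (adjusted p = 0.00408), and for ZEB2, at 0.88 (adjusted p = 0.0101), the latter not without PLKO NDF replicate 2 or 3 (adjusted p = 0.0565 and 0.0726). SNAI1 fell by 1.13 in V71 (adjusted p = 0.000817). Without moderation the call of SNAI1 and the interactions of SNAI2 and ZEB2 end, with an adjusted p of 0.0594, 0.151 and 0.145. SNAI2 and TWIST1 also stand on the S-type list. CDH11 and SNAI2 were both lower in V71 NDF than in PLKO NDF, whereas in PLKO upon differentiation CDH11 rose and SNAI2 fell.

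**Figure D4:**
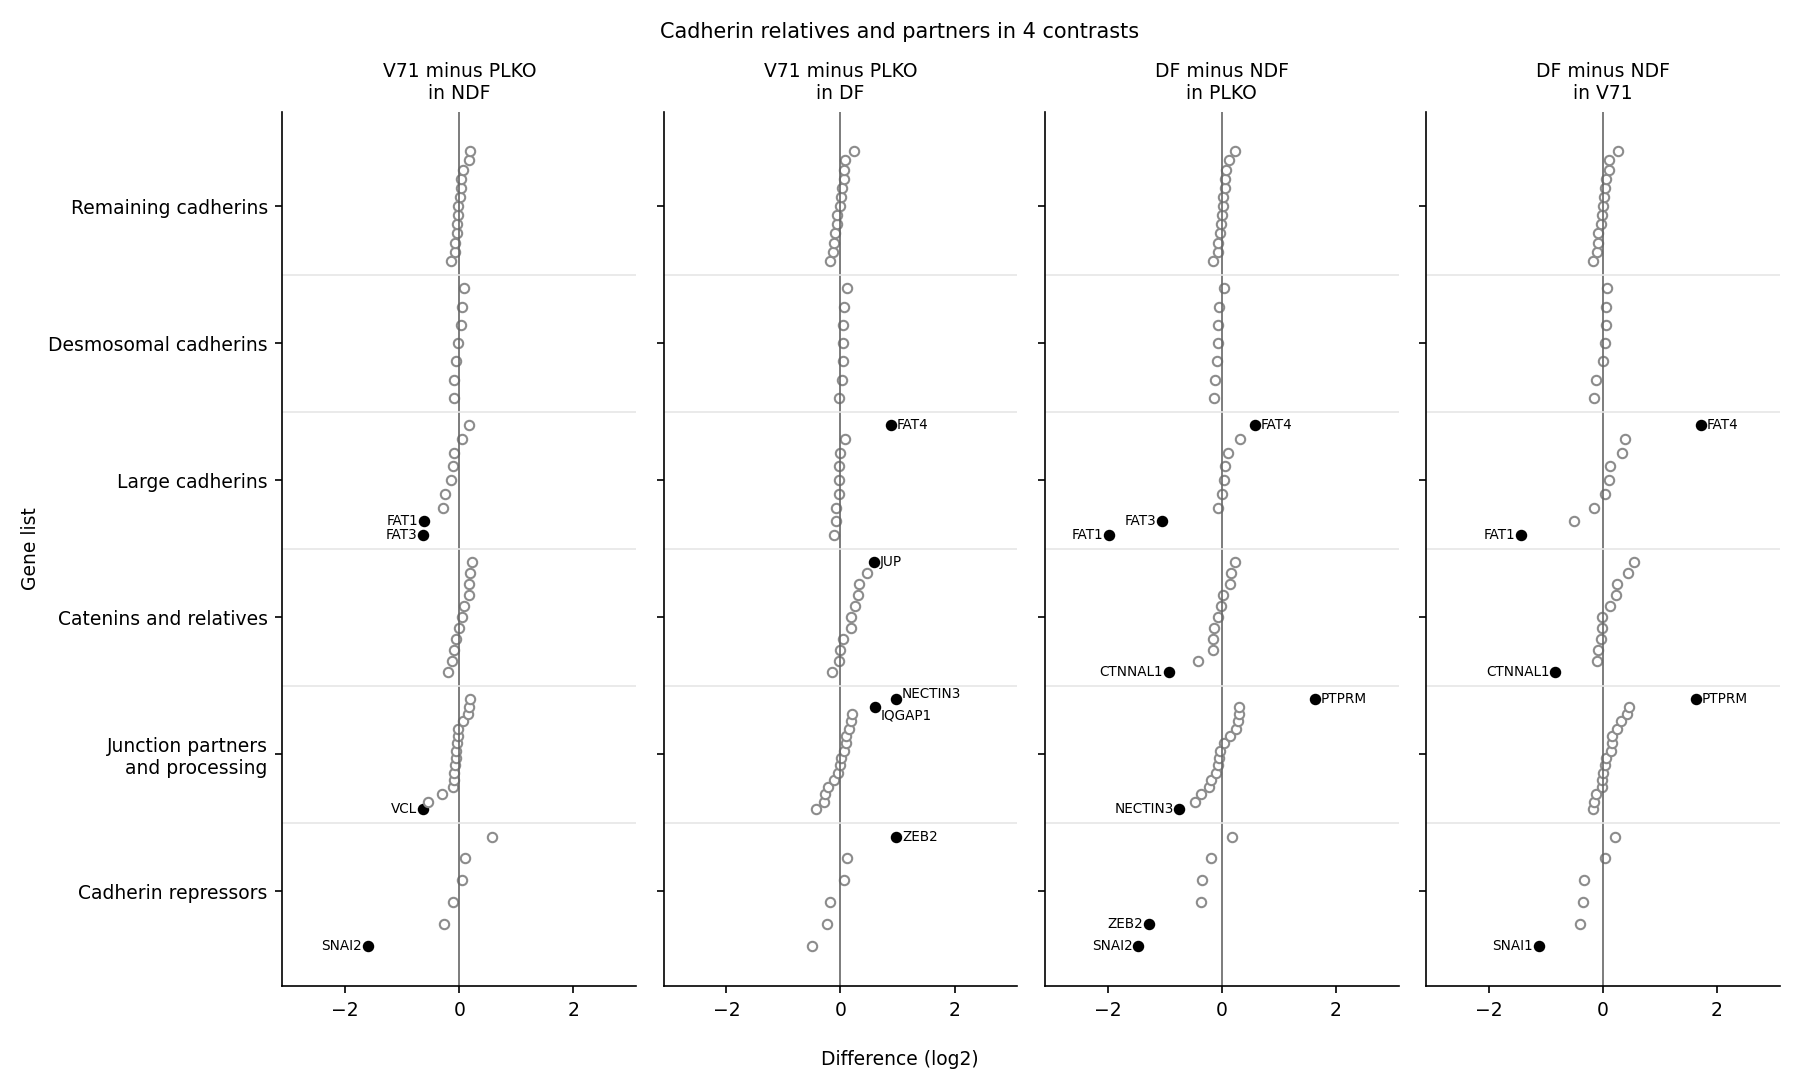
Difference (log2) of each analysed gene of 6 lists of cadherin relatives and partners in the 4 contrasts between groups, with 1 symbol per gene. Filled and named symbols are called and open symbols are not; no gene of the remaining or desmosomal cadherins is called, while FAT4 and PTPRM rise and FAT1 and CTNNAL1 fall upon differentiation in both lines.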

How the data were processed

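Gene expression of 4 groups of 2 arrays each was analysed. The authors deposited log2 values of 28869 rows, which they had obtained by RMA with Partek Genomics Suite 6.5 according to the submitters' processing notes, and these were used unaltered. In the platform annotation 19310 rows had a single symbol, 1752 had several and 7807 had no symbol. Each of the 18377 genes was read from its row with the highest mean. The genome build of the annotation is not given in the sources used here, so neighbours on a chromosome were taken by order only, from the GRCh38.p14 table, a step added after values had been seen.

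Groups follow the codes in the sample titles. Group means were fitted in limma 3.58.1 (R 4.3.3) with eBayes, which gave 4 residual and 5.43 prior degrees of freedom. Thresholds for calls (0.05 for the adjusted p, 1.5 for the fold) follow the methods. The median residual SD was 0.0996. The fit was tested on simulated data, but no outcome of that test is given here, so it lends the results no support. The cadherins and gene lists (remaining, desmosomal and large cadherins; catenins; junction partners; repressors; N-type, S-type, Schwann, retinoic acid and proliferation markers) were chosen with earlier results of these data known. Named were the analysed cadherins, the 3 genes most like each called cadherin, and chromosomal neighbours of CDH11 and CDH18. Up to 4 called genes per contrast were named from each list of cadherin relatives, partners and repressors. Of the marker lists, not every called gene was named. Genes without a call that were named besides are CTNNB1, CTNNA1, CDH1, CDH3, CDH9, CDH17, CDH19, TH, TWIST1, NT5E and ANXA1. Alternatives were no moderation (the analysis of variance of the methods), a trended and robust prior, quantile normalization, median centring, removal of rows under the 33rd percentile, adjustment over rows with 1 symbol, a fold of 2 or none, a replicate block, a fit restricted to the 4 arrays of a contrast, and omission of each of the 8 arrays. Another row per gene could not be tried, as each cadherin had 1. Some genes, that of the shRNA among them, are not reported here.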

Additional observations from a re-analysis of the deposited data

Results flagged for a closer look

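The change upon differentiation differed between the lines for 2 cadherins by the interaction term of limma. For CDH11 it was 1.42 higher in V71 than in PLKO on the log2 scale (adjusted p = 0.00206), since CDH11 rose from a mean of 4.76 to 6.78 in V71 and from 6.87 to 7.46 in PLKO. For CDH18 the difference was -1.34 (adjusted p = 0.0018), with a fall from 4.26 to 2.77 in V71 and means of 2.86 and 2.72 in PLKO. The last 3 means lay below the lower quartile of the arrays. From such a level a fall of CDH18 in PLKO may not be detectable on the array. With 2 arrays per group, single arrays were not tested for standing apart from their group.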

How the results depend on the processing

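No cadherin difference that was called changed its sign under any alternative. Of 674 recomputed differences of single cadherins, 659 kept their side of the threshold, 11 lost a call and 4 gained one. Without moderation of the variance, the counts of called cadherins fell from 1 to 0 for CDH2 and for CDH11 between the lines in DF, for CDH11 upon differentiation of PLKO, and for CDH11 and CDH18 in the interaction; all genes called in the interaction then fell from 200 above and 56 below 0 to 3 and 0. Leaving out dim rows removed CDH18, so that its counts of 1 in NDF, upon differentiation of V71 and in the interaction became 0. A fold of at least 2 left 0 cadherins between the lines in DF in either direction, 0 upon differentiation of PLKO and 1 in place of 2 higher in V71, and no fold threshold gave 2 in place of 1 higher in V71 in NDF and upon differentiation of PLKO, by adding CDH2. With each array left out in turn, the count upon differentiation of PLKO ranged from 0 to 2, and the other counts of cadherins stayed the same. Counts over all genes moved by more than 1.5 times mainly with the moderation and the fold threshold. For instance, the 113 higher in V71 in NDF became 26 without moderation, 40 at a fold of 2, 194 with no fold threshold and 71 without PLKO NDF replicate 3, and the 200 above 0 in the interaction ranged from 97 to 125 in the 6 omissions of an array that moved it so far.

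Replicate numbers are shared by the lines, and nothing else pairs the arrays. Deviations of same-numbered arrays correlated at -0.176 in NDF and at 0.188 in DF. With a replicate block, the 2 cadherins called in NDF, in DF and in the interaction were the same, CDH11 at an adjusted p of 0.000512, 0.0102 and 0.0105, and the genes called in NDF numbered 110 higher and 271 lower, against 113 and 283. With the numbers of NDF crossed, a setting chosen after seeing the data, 119 were higher and 290 lower. DF and NDF share only number 2, so no paired analysis was possible between them. The 2 arrays per group and the low signal of CDH6, CDH7, CDH8, CDH10, CDH12 and CDH18 limit what could be detected.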
